A study of Mus musculus with 4 samples.

Results

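The p53 pathway genes described here are 36 mouse genes: the p53 family and its inhibitors (6 genes), cell cycle arrest and growth control targets (9), the mitochondrial death pathway with other death genes (9), death receptors (2), growth signalling, metabolism and autophagy targets (6) and DNA repair and nucleotide supply genes (4). They were chosen by name from a table of 21881 gene symbols. A total of 35 were found under their current symbol and 1, Tigar, under an older one. Their mRNA was measured in mesenchymal stem cell lines from C57BL/6 mice, a fibroblast type of cell from adult bone marrow. NR6A1 is an orphan nuclear receptor and transcriptional repressor of early development, and the comparison asks what its forced presence did to the mRNAs of these cells. The first group, NR6A1, carried a puromycin-resistant pMMP-puro retrovirus encoding NR6A1 with Flag and HA tags. The second group, vector, carried the same retrovirus without that insert. Each group held 1 culture of clone 6 and 1 culture of clone 12, so there were 4 libraries and n = 2 per group. All 4 carried the Dicer f/f genotype with Dicer intact. Each line is a single immortalised clone, and how the lines were immortalised is not given in the sources used here, which matters for a pathway that immortalisation often disables.

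The p53 protein, encoded by Trp53, is a transcription factor that is held low by the ubiquitin ligase Mdm2 and its relative Mdm4 and is released when DNA is damaged or a cancer gene is active. It then raises the mRNAs of genes that stop the cell cycle, repair DNA or start cell death, and also that of Mdm2, which closes a feedback loop. In mesenchymal stem cells and other fibroblasts the same loop limits growth in culture and leads to senescence. Mdm2 and Cdkn1a, the gene of the cell cycle inhibitor p21, are the targets most often read as a sign of its activity.

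The DNA that p53 binds is made of 2 copies of a 10-base motif, here the p53 motif, at most 13 bases apart. Promoter windows from 250 bases before to 50 bases after the start, from RefSeq on GRCm38.p6, matched 27 members with 36 windows, and both strands were searched. The p53 motif lay in 13 windows of 12 members, which is 36.1% of the members' windows against 8.36% of all 32851 windows. The pair of motifs lay in 1 window, that of Cdkn1a, against 0.0731% of all windows. The stretches below are shown because they belong to the feedback gene, the p21 gene and 3 of the 4 further members with a match that passed the test between the lines (the fourth is Aen, whose sequence is not shown); capitals mark the match, which for Cdkn1a spans both motifs and the bases between them.
Cdkn1a, chr17:29090892-29090951, plus strand: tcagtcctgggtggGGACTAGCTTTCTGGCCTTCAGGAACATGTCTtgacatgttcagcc
Mdm2, chr10:117710910-117710969, minus strand: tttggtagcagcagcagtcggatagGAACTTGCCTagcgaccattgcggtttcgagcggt
Gadd45a, chr6:67037413-67037472, minus strand: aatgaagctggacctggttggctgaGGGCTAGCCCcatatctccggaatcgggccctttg
Ccng1, chr11:40755437-40755496, minus strand: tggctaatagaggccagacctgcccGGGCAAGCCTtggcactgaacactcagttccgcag
Bax, chr7:45467065-45467124, minus strand: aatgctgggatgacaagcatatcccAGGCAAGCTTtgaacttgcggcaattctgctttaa
A match is a description and not a binding site. Relative to the start, the Cdkn1a match ran from position -73 to -42, and those of Mdm2, Gadd45a, Ccng1 and Bax began at -186, -40, -185 and -201. As given below, Mdm2 and Gadd45a were higher and Ccng1, Bax and Aen lower in clone 12 than in clone 6. Ddb2, Perp, Pmaip1, Rrm2b, Tnfrsf10b, Trp53inp1, Trp63, Xpc and Zmat3 had no entry.

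The deposited values are FPKM, fragment numbers scaled by transcript length and by the mapped total, so levels of different genes can be compared per length. The depth inferred from the steps between low values was 20.4 to 24.2 M reads, so that a value of 1 FPKM corresponds to 36.6 to 43.3 reads for a 2000-base mRNA. Nr6a1 stood at 783 and 598 FPKM in the NR6A1 libraries of clone 6 and clone 12, against 4.18 and 2.80 FPKM in the vector libraries, which fits the labels. Of 12 markers of mesenchymal stem cells and fibroblasts 11 reached 1 FPKM in some library, the exception being Thy1. Their sums were 4674 and 4419 FPKM in the NR6A1 and vector libraries of clone 12, against 5740 and 6037 FPKM in clone 6. Single markers went both ways. Ly6a was at 125 and 317 FPKM in clone 12 against 9.31 and 19.0 FPKM in clone 6. Col1a1 was at 693 and 522 FPKM in clone 12 against 1422 and 1547 FPKM in clone 6. None of 5 endothelial and 5 epithelial markers reached 1 FPKM. Of 10 blood cell markers 3 did (Cd34, Cd14 and Cd68), Ptprc and Kit reached no more than 0.0234 and 0.00364 FPKM in any library, and Cd3e and Hbb-b1 were at 0. Blood marker sums were 18.6 and 24.5 FPKM in clone 12 and 7.65 and 7.77 FPKM in clone 6. Most of that gap was Cd34, at 10.0 and 13.8 FPKM in clone 12, against 0.13 and 0.12 FPKM in clone 6. The part of these markers in the clone differences below was not tested. In bulk RNA, fewer cells of a type and less RNA per cell cannot be told apart.

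Most of the pathway was expressed in every culture. Of the 36 members 32 had a mean of at least 1 FPKM and were tested, among 11346 genes tested in all, and 17 had a mean of at least 10 FPKM. Bax, Trp53, Mdm2, Phlda3, Plk2 and Ccng1 had the highest means. The 4 members below the limit were Trp73, the p53 relative at 0 to 0.0104 FPKM; Rprm, a cell cycle inhibitor at 0.104 to 0.338 FPKM; Perp, a membrane protein of p53-dependent death and of epithelial adhesion at 0.0429 to 0.338 FPKM; and Pmaip1, which encodes the death protein Noxa, at 0.270 to 0.920 FPKM. The plot of the levels in every library shows the members' spread, with the gap between the lines for Mdm2, Gadd45a and Plk2.

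**Figure D1:**
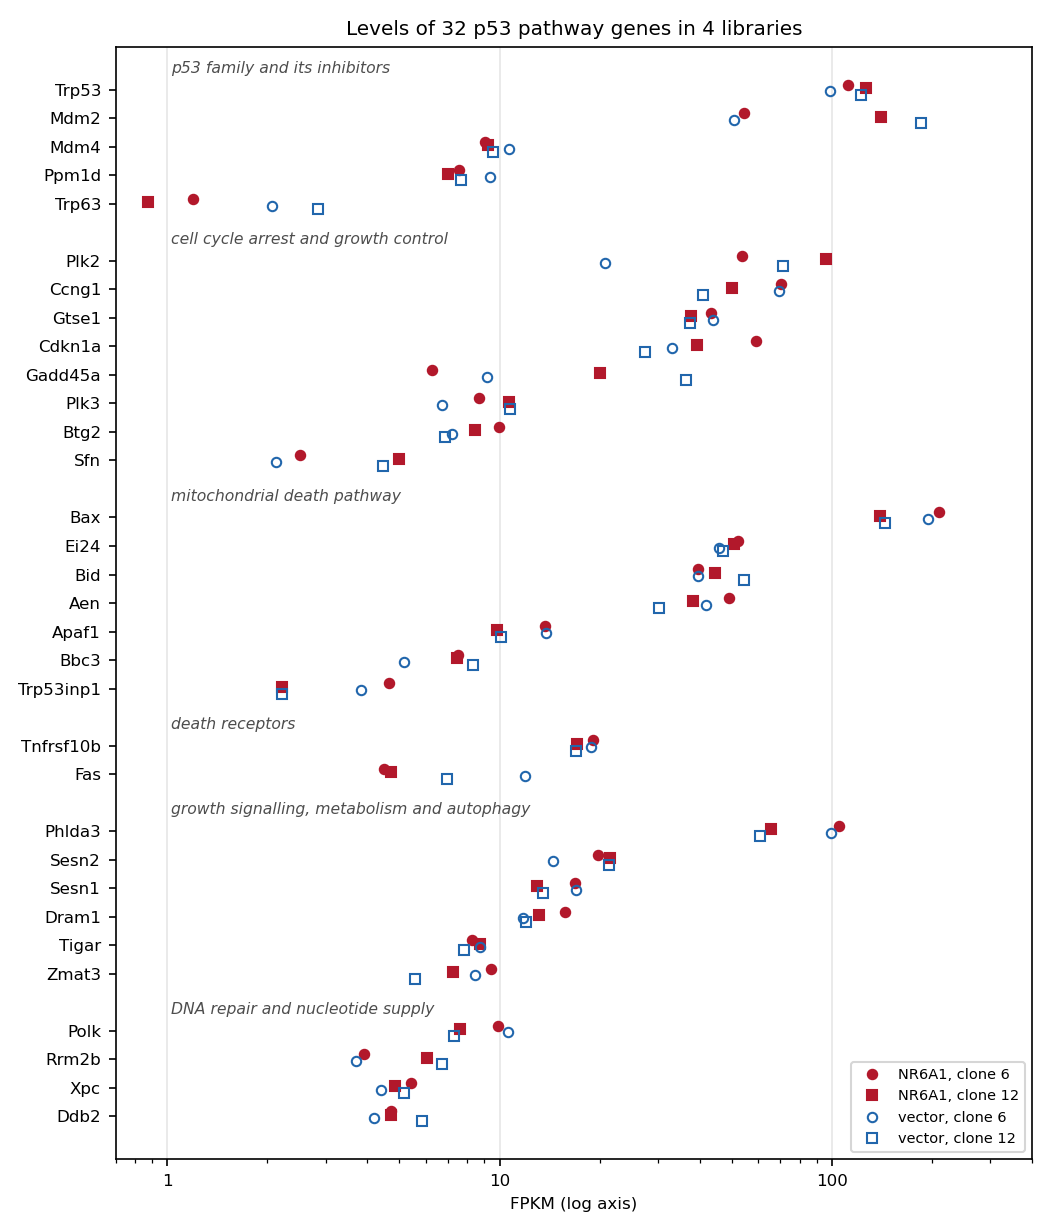
FPKM (log axis) of the 32 members tested in each of the 4 libraries, grouped by role and ordered by mean within a role; filled symbols are NR6A1, open symbols vector, circles clone 6 and squares clone 12. Trp53 is close to level across the 4 libraries at 98.6 to 127 FPKM, whereas Gadd45a lies between 6.28 and 36.3 FPKM and Mdm2 between 50.7 and 185 FPKM.

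NR6A1 against vector was compared within each line. No member passed the threshold of limma's moderated test with clone as a block (adjusted p under 0.05): 0 of 32, where 4 of the 11346 genes did (0.0353%, with 0.0264% higher and 0.00881% lower). At an unadjusted p under 0.05, 7 of the 32 passed (21.9%, against 8.48% of all genes): Cdkn1a, Plk2, Btg2 and Aen on the higher side and Gadd45a, Fas and Trp63 on the lower side. With NR6A1, 13 members were higher in both lines (40.6%, against 28.9% of all genes) and 7 were lower in both (21.9%, against 29.4%). Counted on FPKM + 1, no member was at least 1.5-fold apart in the same direction in both lines. Of all genes 1.45% were (0.432% higher and 1.02% lower). By plain FPKM Trp63 was, with NR6A1 over vector ratios of 0.575 in clone 6 and 0.307 in clone 12. The share of all genes past 1.5-fold by plain FPKM was not counted. On the scale of log2(FPKM + 1), used for every log2 difference here, the median of the 32 was 0.06, against 0.001 for all genes. In clone 6 the members' median was 0.11, against 0.011 for all genes. In clone 12 the members' median was 0.0005, against -0.0096 for all genes. With 2 lines and 1 residual degree of freedom, p-values measure in part how alike the lines responded. Limma also borrows spread from the other genes (2.9 prior degrees of freedom). The spread between repeat cultures of a line was not measured.

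Among the regulators, Trp53 was at 112 and 127 FPKM in the NR6A1 libraries of clone 6 and clone 12, against 98.6 and 122 FPKM in the vector libraries. The groups overlapped, and the log2 difference was 0.12 ± 0.08 (SE; limma adjusted p = 0.677). Mdm2 was at 54.5 FPKM with NR6A1 in clone 6 and 140.2 FPKM in clone 12, against 50.7 and 185 FPKM with vector. Its level lay farther apart between lines than between viruses, and the difference between viruses was 0.10 in clone 6 and -0.40 in clone 12 on the log2 scale. Trp63, the p53 relative of stratified epithelium, was low throughout, at 1.19 and 0.876 FPKM with NR6A1 against 2.07 and 2.85 FPKM with vector. The NR6A1 libraries lay below both vector libraries, with a log2 difference of -0.76 ± 0.21 (limma adjusted p = 0.516). Mdm4 (9.07 to 10.7 FPKM) and Ppm1d, a phosphatase that switches p53 signalling off (6.98 to 9.34 FPKM), were lower with NR6A1 in both lines at adjusted p-values no lower than 0.646 by limma.

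Of the 7 members with an unadjusted p under 0.05 in limma, 4 were arrest targets (4 of 8 tested, 50%, against 8.48% of all genes). Cdkn1a was at 59.3 and 39.4 FPKM in the NR6A1 libraries of clone 6 and clone 12, against 32.9 and 27.4 FPKM in the vector libraries. Both NR6A1 libraries lay above both vector libraries, and the log2 difference of 0.67 ± 0.11 had the lowest p-value among the members (unadjusted p = 0.00368, limma adjusted p = 0.305). Plk2, a polo-like kinase gene, was at 53.8 and 96.1 FPKM with NR6A1, against 20.7 and 71.2 FPKM with vector. It was higher with NR6A1 in each line, by 1.33 in clone 6 and 0.43 in clone 12 on the log2 scale, but the groups overlapped across lines (0.88 ± 0.24, limma adjusted p = 0.510). Btg2, an antiproliferative gene, was at 9.95 and 8.46 FPKM with NR6A1 and 7.21 and 6.88 FPKM with vector (0.34 ± 0.10, limma adjusted p = 0.522). Gadd45a, a growth arrest gene induced by DNA damage, went the other way, at 6.28 and 20.1 FPKM with NR6A1, against 9.15 and 36.3 FPKM with vector. It was lower with NR6A1 in each line, and because the lines stood far apart the groups overlapped (-0.65 ± 0.12, limma adjusted p = 0.325). Ccng1, Plk3, Sfn and Gtse1 differed by -0.003 to 0.16 (log2), at adjusted p-values of 0.665 or more by limma.

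Among the death genes the difference also ran both ways. Fas, the death receptor gene, was at 4.48 and 4.72 FPKM with NR6A1, against 11.9 and 6.95 FPKM with vector. The groups did not overlap, and the log2 difference was -0.86 ± 0.22 (limma adjusted p = 0.467), -1.24 in clone 6 and -0.48 in clone 12. Aen, an exonuclease gene of p53-dependent death, was at 49.1 and 38.3 FPKM with NR6A1 against 41.8 and 30.3 FPKM with vector (0.28 ± 0.08, limma adjusted p = 0.507). Tnfrsf10b, the other death receptor, was nearly level, at 19.1 and 17.2 FPKM with NR6A1 and 18.9 and 16.9 FPKM with vector. Bax, which permeabilises mitochondria, was at 209.9 and 139 FPKM with NR6A1 and 195 and 144 FPKM with vector. Ei24, an endoplasmic reticulum protein gene first found as a p53 target, was at 52.3 and 50.8 FPKM with NR6A1 and 45.7 and 47.0 FPKM with vector, above it in both lines (limma adjusted p = 0.646). Of the 25 members outside the 7 named, the log2 differences ran from -0.20 to 0.26, which holds every metabolism, autophagy and repair member.

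**Figure D2:**
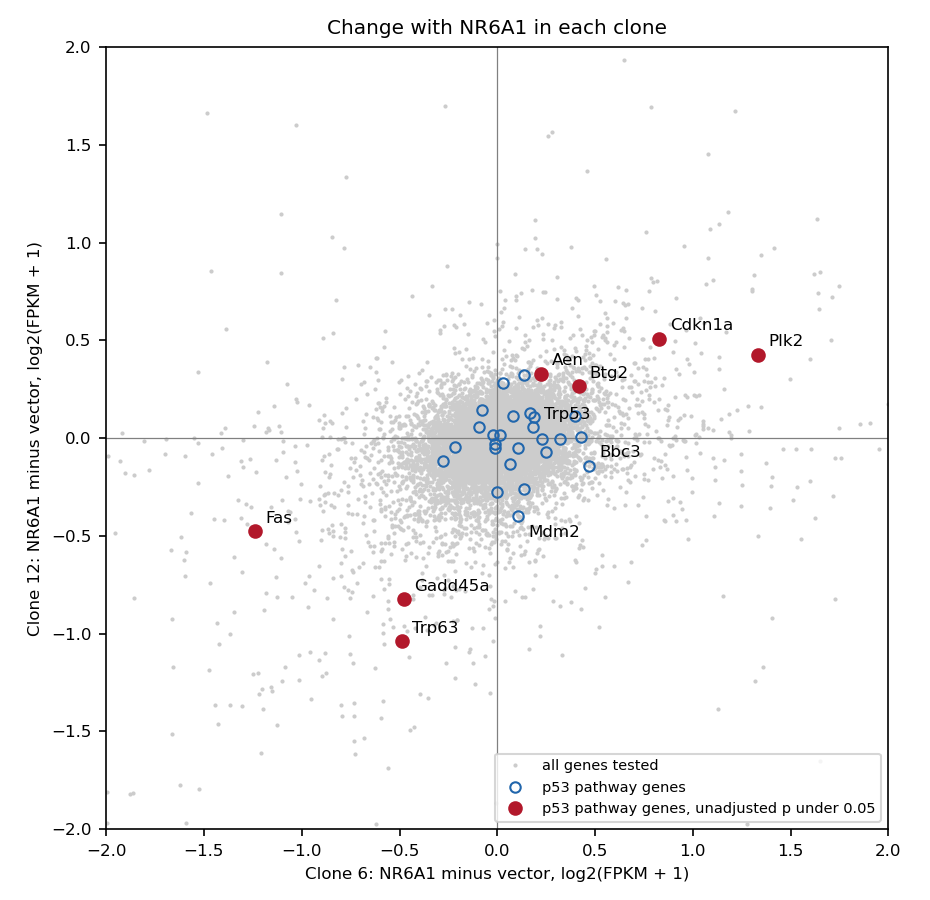
Log2 difference of NR6A1 minus vector in clone 6 (horizontal axis) and in clone 12 (vertical axis) for the members, over all genes tested in grey, on the scale of log2(FPKM + 1). Plk2 and Cdkn1a lie toward the upper right and Fas, Trp63 and Gadd45a toward the lower left, while Mdm2 lies at 0.10 and -0.40. Filled points have an unadjusted p under 0.05, and 142 genes fall outside the axes.

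The plot of the change in each clone places these genes among all others. Taking out 197 genes of short RNAs, whose FPKM scatter widely, gave 51 genes past the threshold (0.457%) and still no member; the lowest adjusted p was then 0.102 by limma, for Cdkn1a.

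More members separated the lines than the viruses. Between clone 12 and clone 6, with virus as a block, 11 of the 32 members passed (34.4%, against 21.9% of all genes), 5 higher (15.6%, against 11.5%) and 6 lower in clone 12 (18.8%, against 10.5%). Mdm2, Gadd45a, Plk2, Sfn and Rrm2b rose and Ccng1, Bax, Apaf1, Aen, Trp53inp1 and Phlda3 fell. Of the 32, 9 were higher in clone 12 with both viruses (28.1%, against 43.9% of all genes) and 14 lower (43.8%, against 35.9%), and 19 had an unadjusted p under 0.05 (59.4%, against 41.1%). Counted on FPKM + 1, 5 were at least 1.5-fold apart with both viruses (15.6%, against 10.9%). These were Mdm2, Gadd45a, Plk2 and Sfn higher (12.5%, against 5.57%) and Phlda3 lower (3.12%, against 5.34%). By plain FPKM Rrm2b and Trp53inp1 were too. Their clone 12 over clone 6 ratios with NR6A1 and vector were 1.55 and 1.82 for Rrm2b and 0.475 and 0.580 for Trp53inp1. The share of all genes by plain FPKM was not counted here either. Without the short RNA genes 16 members passed (50%, against 31.2%), adding Cdkn1a, Plk3, Polk, Sesn1 and Zmat3. The median was -0.09, against 0.04 for all genes. Here p-values measure in part how alike the NR6A1 pair and the vector pair differed, and not the spread between repeat cultures. These calls rest on all 4 libraries, and hardly any held with 1 left out, in limma fits with no block where 1 library stands for a line. In those fits the differences ran from 1.40 to 1.80 for Mdm2, 1.29 to 2.12 for Gadd45a and 0.61 to 1.95 for Plk2. They ran from 0.70 to 0.87 for Sfn and from -0.75 to -0.63 for Phlda3. With no filter on low values 0 members and 0 genes passed in limma (19 members and 5360 genes at an unadjusted p under 0.05).

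Mdm2 was the regulator that differed. It was at 140.2 and 185 FPKM in the NR6A1 and vector libraries of clone 12, against 54.5 and 50.7 FPKM in those of clone 6. Every clone 12 value lay above every clone 6 value, by 2.57-fold with NR6A1 and 3.66-fold with vector (log2 1.60 ± 0.15, limma adjusted p = 0.0181). Trp53 itself was at 127 and 122 FPKM in clone 12 against 112 and 98.6 FPKM in clone 6, which did not pass (0.24 ± 0.08, limma adjusted p = 0.0966). Mdm4, Ppm1d and Trp63 did not pass either, with log2 differences of -0.18 to 0.05.

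Of the arrest genes 4 of 8 passed (50%, against 21.9% of all genes), in both directions. Gadd45a rose the most of all members in clone 12, to 20.1 and 36.3 FPKM in its NR6A1 and vector libraries, against 6.28 and 9.15 FPKM in those of clone 6. That is 3.19-fold with NR6A1 and 3.97-fold with vector (log2 1.70 ± 0.12, limma adjusted p = 0.0138). Plk2 rose to 96.1 and 71.2 FPKM in clone 12, against 53.8 and 20.7 FPKM in clone 6 (1.28 ± 0.24, limma adjusted p = 0.0390), and it passed under 6 of 11 settings that kept all 4 libraries. Sfn, which encodes the checkpoint protein 14-3-3 sigma, was at 4.98 and 4.47 FPKM in clone 12 against 2.51 and 2.12 FPKM in clone 6 (0.79 ± 0.12, limma adjusted p = 0.0296). All 3, picked because they passed on these same values, had every clone 12 value above every clone 6 value. The share of all genes without overlap between the lines was not counted. Ccng1, the cyclin G1 gene, fell to 49.96 and 40.9 FPKM in clone 12, against 70.5 and 69.1 FPKM in clone 6 (-0.62 ± 0.09, limma adjusted p = 0.0293). Cdkn1a did not follow Mdm2: it was at 39.4 and 27.4 FPKM in clone 12 and 59.3 and 32.9 FPKM in clone 6 (-0.42 ± 0.11, limma adjusted p = 0.0669, and 0.0327 without the short RNAs).

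Of the mitochondrial and other death genes 4 of 7 passed (57.1%, against 21.9% of all genes), and all 4 fell in clone 12. This group is wider than mitochondrial death, since it also holds Aen, Trp53inp1 and Ei24. Bax was at 139 and 144 FPKM in the NR6A1 and vector libraries of clone 12, against 209.9 and 195 FPKM in those of clone 6 (-0.51 ± 0.08, limma adjusted p = 0.0305). Apaf1, the scaffold of the apoptosome, was at 9.84 and 10.1 FPKM in clone 12 against 13.7 and 13.8 FPKM in clone 6 (-0.43 ± 0.08, limma adjusted p = 0.0383). Apaf1 overlaps Ikbip, at 29.97 to 38.0 FPKM, and the strand setting is not given in the sources used here, so reads may be shared. Aen was at 38.3 and 30.3 FPKM in clone 12 against 49.1 and 41.8 FPKM in clone 6 (-0.40 ± 0.08, limma adjusted p = 0.0388). Trp53inp1, a stress protein gene that aids p53 activation, was at 2.21 and 2.22 FPKM in clone 12 against 4.66 and 3.83 FPKM in clone 6 (-0.70 ± 0.14, limma adjusted p = 0.0422). For all 4 genes, picked because they passed on these same values, both clone 12 values lay below both clone 6 values. The share of all genes that did so was not counted. Bbc3, which encodes Puma, Bid and Ei24 did not pass, with log2 differences of 0.30, 0.30 and -0.001. Bid was higher in clone 12 with both viruses. Neither death receptor passed (Fas -0.32 and Tnfrsf10b -0.15).

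Of the growth and metabolism targets 1 of 6 passed (16.7%, against 21.9% of all genes). Phlda3, an inhibitor of Akt signalling, was at 65.7 and 60.6 FPKM in the NR6A1 and vector libraries of clone 12, against 105 and 99.4 FPKM in those of clone 6. The lines did not overlap (-0.69 ± 0.07, limma adjusted p = 0.0193). Sesn2, a stress sensor that restrains mTORC1, was at 21.5 and 21.4 FPKM in clone 12 against 19.8 and 14.5 FPKM in clone 6 (0.32 ± 0.13, limma adjusted p = 0.154), and its relative Sesn1 differed by -0.33. Zmat3, an RNA-binding protein gene, differed by -0.43, Dram1, an autophagy gene, by -0.11, and Tigar, a regulator of glycolysis, by -0.04. Dram1 overlaps Ccdc53 (33.3 to 36.1 FPKM), so its reads may be shared.

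Of the repair genes 1 of 4 passed (25%, against 21.9% of all genes). Rrm2b, the p53-induced ribonucleotide reductase subunit that supplies nucleotides, was at 6.06 and 6.73 FPKM in the NR6A1 and vector libraries of clone 12, against 3.90 and 3.69 FPKM in those of clone 6 (0.62 ± 0.11, limma adjusted p = 0.0381). Polk, a translesion DNA polymerase, was at 7.61 and 7.28 FPKM in clone 12 and 9.88 and 10.6 FPKM in clone 6. The lines did not overlap for either gene, but Polk missed the threshold (-0.41 ± 0.09, limma adjusted p = 0.0534). The damage recognition genes Ddb2 and Xpc differed by 0.19 and 0.03, and Ddb2 overlaps Acp2 (10.7 to 13.2 FPKM).

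**Figure D3:**
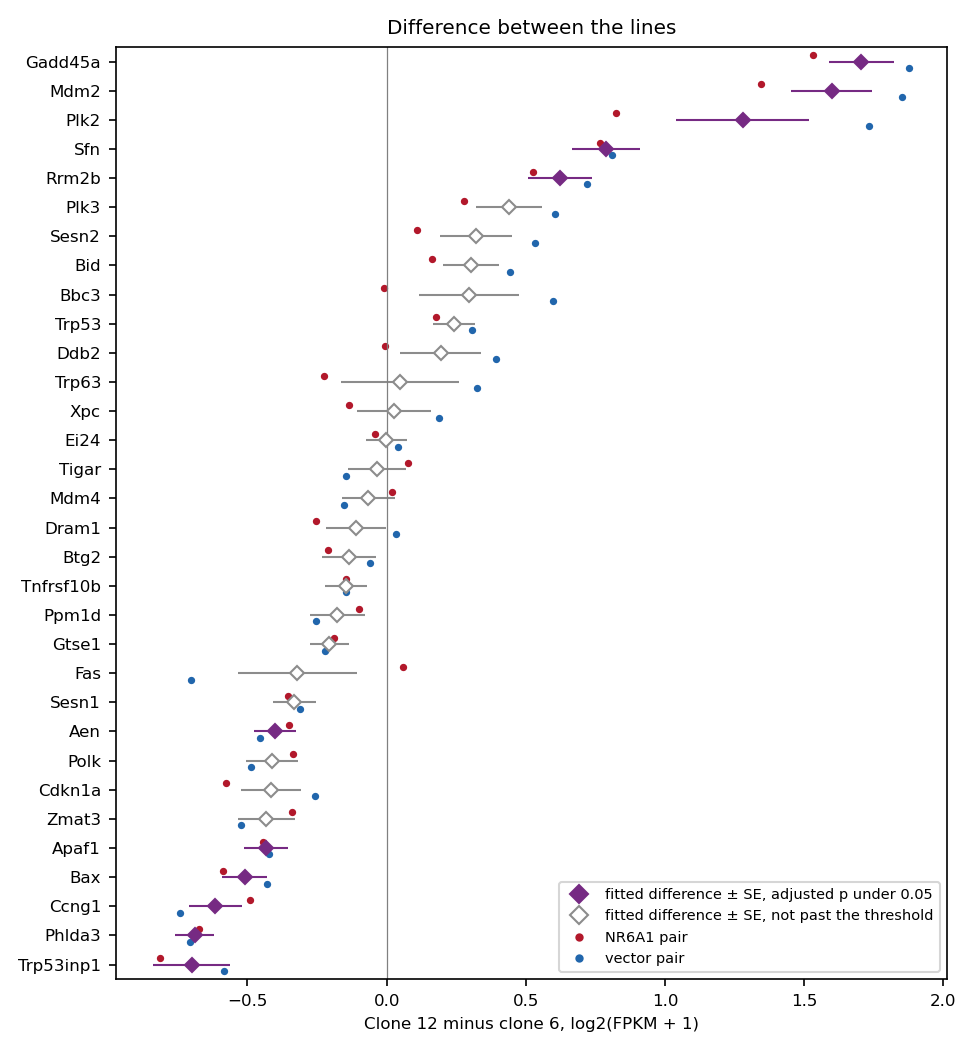
Fitted log2 difference of clone 12 minus clone 6 with its standard error for the 32 members tested, ordered by size, on the scale of log2(FPKM + 1); filled diamonds passed the threshold and dots give the NR6A1 pair and the vector pair. Gadd45a at 1.70, Mdm2 at 1.60 and Plk2 at 1.28 stand out to the right, and Trp53inp1 at -0.70 and Phlda3 at -0.69 reach farthest to the left.

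The plot of the clone differences shows members of 1 pathway on both sides of 0, and so did its other genes. Of 22 tested p53 regulators outside the members 5 passed (22.7%, near the 21.9% of all genes): Atm, Cdkn2a and the checkpoint kinase gene Chek1 (0.61) rose, and Hipk2, a kinase gene of p53 (-0.75), and Ppp1r13l, which encodes the p53 inhibitor iASPP (-0.46), fell in clone 12. Atm, the kinase that signals DNA breaks to p53, was at 24.2 and 31.8 FPKM in the NR6A1 and vector libraries of clone 12, against 7.58 and 6.74 FPKM in those of clone 6 (1.82 ± 0.15, limma adjusted p = 0.0161). Cdkn2a, the locus of p16 and of the Mdm2 inhibitor Arf, was at 402 and 471 FPKM in clone 12 against 306 and 306 FPKM in clone 6, high in every library (0.51 ± 0.09, limma adjusted p = 0.0375). Of 27 tested further p53 targets 10 passed (37%, against 21.9% of all genes), 4 higher (14.8%, against 11.5%) and 6 lower (22.2%, against 10.5%). Ddit3, the gene of the stress factor CHOP, was at 195 and 280 FPKM in clone 12 against 59.0 and 43.4 FPKM in clone 6 (2.18 ± 0.25, limma adjusted p = 0.0215). Thbs1, the thrombospondin gene, was at 172 and 221 FPKM in clone 12 against 274 and 657 FPKM in clone 6 (-1.12 ± 0.24, limma adjusted p = 0.0482), and Rps27l, the best expressed of the list, did not pass. Of 14 tested genes of the mitochondrial death machinery 5 passed (35.7%, against 21.9%), and among them the caspase inhibitor gene Xiap (0.50) and the survival gene Mcl1 (0.37) rose, and the survival gene Bcl2l2 (-0.62) and the death gene Bad (-0.52) fell. Among 21 mitosis genes that p53 lowers through p21 and the DREAM complex 2 passed (9.52%, against 21.9% of all genes), the cyclin gene Ccnb2 higher (0.54) and its kinase Cdk1 lower (-0.38), with a median of -0.03. No gene of these 4 lists passed for NR6A1 against vector in the limma fit over all 11346 genes; at an unadjusted p under 0.05 none of the mitosis or death machinery genes, 1 of the 22 regulators (4.55%) and 5 of the 27 further targets (18.5%) passed, against 8.48% of all genes.

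Mdm2 was set beside its neighbours in the order of RefSeq genes on GRCm38.p6, 4 on each side. Slc35e3, next to Mdm2 and encoding a solute carrier family protein, rose to 53.3 and 80.9 FPKM in the NR6A1 and vector libraries of clone 12, against 12.5 and 11.3 FPKM in those of clone 6. Its difference was the larger of the pair (2.37 ± 0.20 against 1.60 for Mdm2, limma adjusted p = 0.0160). On the other side Cpm stayed below 1 FPKM, at 0.243 and 0.427 FPKM in clone 12 and 0.066 and 0.058 FPKM in clone 6. Cpsf6, an mRNA 3' end processing factor gene beyond it, was at 39.5 and 50.1 FPKM in clone 12 against 27.2 and 29.7 FPKM in clone 6 (0.63 ± 0.09, limma adjusted p = 0.0270). Nup107, Rap1b and Mdm1, beyond Slc35e3, did not pass, at -0.22, -0.20 and -0.17. Lyz1 and Lyz2, beyond Cpsf6, stayed below 1 FPKM and were lower in clone 12. Lyz2 was at 0 and 0.10 FPKM in clone 12 against 0.66 and 0.91 FPKM in clone 6. Lyz1 was at 0 and 0 FPKM in clone 12 against 0.133 and 0.077 FPKM in clone 6. The plot of Mdm2 and its neighbours shows Slc35e3 and Cpsf6, on either side of it, higher in clone 12. A change of DNA copy number in either line was not tested.

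**Figure D4:**
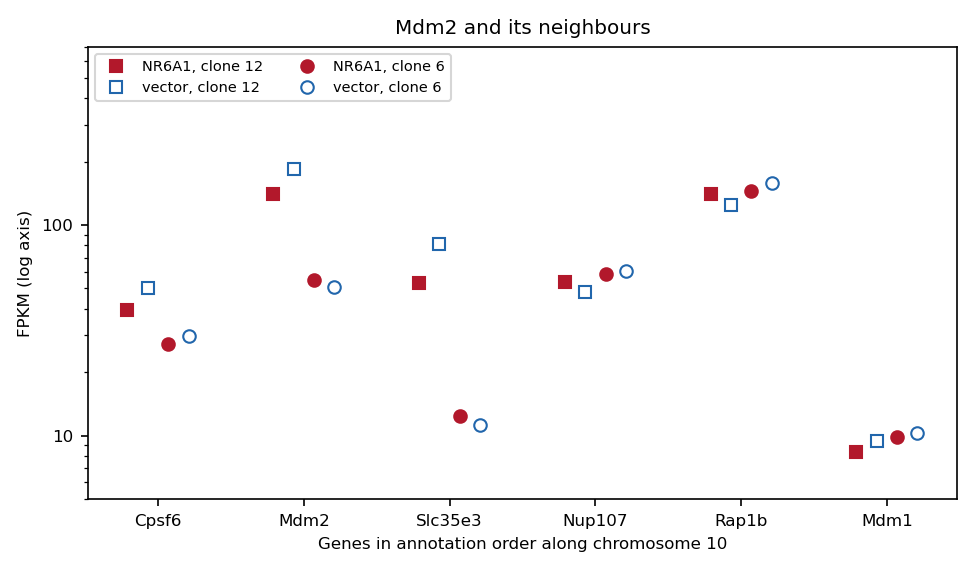
FPKM (log axis) of Mdm2 and the 5 of its 8 neighbours that were tested, in annotation order; squares are clone 12, circles clone 6, filled symbols NR6A1 and open symbols vector. Mdm2, Slc35e3 and Cpsf6 lie higher in clone 12 than in clone 6, whereas Nup107, Rap1b and Mdm1 nearly coincide.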

How the data were processed

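Messenger RNA from 4 cultures was sequenced, 1 library each for NR6A1 and vector in clone 6 and clone 12. The deposited values are FPKM per gene; the tools named in the submitters' processing notes are TopHat 1.2.0 with Cufflinks 1.0.3, on mm9. Neither the annotation nor strandedness is given in the sources used here. FPKM of overlapping or similar genes can share reads, and FPKM of Nr6a1 includes the retroviral transcript. Depth was estimated from the steps between low values over 1823 genes with 1 transcript length (of values under 10 reads, 50.1% to 53.3% came within 0.1 of whole numbers; chance gives 20%), which is too rough for a count test.

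Genes averaging 1 FPKM or more were tested as log2(FPKM + 1), which understates changes of low genes, with limma 3.58.1 in R 4.3.3 (trended prior, Benjamini-Hochberg adjustment over all 11346 genes; 2.9 prior degrees of freedom). NR6A1 against vector had clone as a block, and clone 12 against clone 6 had virus as a block. The clone numbers mark the same cell line in both groups, so they pair the libraries: the clone difference with NR6A1 and that with vector correlated at r = 0.63 across the genes tested, which are not independent, and at r = 0.87 without short RNA genes. Whether the virus effect differed between clones could not be tested, for lack of residual degrees of freedom, and a permutation test of 2 against 2 cannot reach 0.05.

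The members and all lists were chosen with earlier results of these data known. The text gives in full the 2 best expressed members of each role, each member past either threshold, and those with an unadjusted p under 0.05 for NR6A1, the last added after their values were seen; of each other list it names genes past the threshold (up to 6), otherwise those among the 3 best expressed, with some genes not reported here. RefSeq names matched 21669 of 21881 symbols. Alternatives changed the pseudocount, filter, scaling, prior, block, short RNA genes and the libraries used.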

Additional observations from a re-analysis of the deposited data

Results flagged for a closer look

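For 5 members the libraries moved in opposite directions by at least 0.1 on the log2(FPKM + 1) scale, which is why they are given here; none of these differences was tested, since 4 libraries leave no residual for it. Mdm2, the p53 ubiquitin ligase gene, differed between NR6A1 and vector by 0.10 in clone 6 and by -0.40 in clone 12. Bbc3, which encodes the death protein Puma, differed by 0.47 in clone 6 and by -0.14 in clone 12, and Ddb2, a DNA damage recognition gene, by 0.14 in clone 6 and by -0.26 in clone 12. Trp63, the p53 relative, differed between clone 12 and clone 6 by -0.23 with NR6A1 and by 0.32 with vector. Xpc, the other damage recognition gene, differed between clone 12 and clone 6 by -0.13 with NR6A1 and by 0.19 with vector.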

How the results depend on the processing

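For NR6A1 against vector, 0 members passed under every alternative that kept all 4 libraries. The number of genes was 4 as reported, 7 with a pseudocount of 5, 2 with no filter, 38 with a robust prior and 51 without short RNA genes. Leaving out 1 library (limma with no block, the lone library assumed to vary like the rest) let no gene pass, not even Nr6a1. Such fits therefore cannot tell whether a member would pass. The members' median was then 0.041 to 0.15. In those fits the lines are unequally held, and the fitted differences ran from -1.59 to 0.29 for Gadd45a, -1.07 to 0.78 for Mdm2 and -0.033 to 0.27 for Trp53. For clone 12 against clone 6, 2490 genes and 11 members became 0 and 0 with no filter, and 1581 and 7 with no trended prior, and leaving out 1 library gave 41 to 889 genes and 0 to 1 members. The members' clone median of -0.09 was -0.068 with a pseudocount of 5, -0.12 with no filter, -0.14 with a filter at 5 FPKM, -0.12 with upper quartile scaling, -0.13 with quantile scaling and -0.10 to -0.039 with 1 library left out. With no replicate block, 4 genes and 0 members passed for NR6A1, and 1993 genes and 10 members for the clones: Plk2 and Aen missed the threshold and Polk passed. The causes were not tested. Depth limits what can be said of Trp73, Rprm, Perp and Pmaip1, which no test here covers at the filter used.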

Other observations

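Other sequence motifs in the members' promoter windows were counted on both strands. AGGTCA, the core that nuclear receptors of the NR6A1 kind bind, lay in 4 of 36 windows (11.1%, against 16.3% of all windows), those of Btg2, Mdm4, Polk and Sfn. With TCA directly before it, it lay in 1 window, that of Polk (2.78%, against 0.423%), and its repeat with no base between the copies lay in none (0.00609% of all windows). GGGCGG, the GC box, lay in 69.4% of the members' windows against 35.7% of all, CCAAT in 44.4% against 37.4%, and CATG, which can overlap the core of the p53 motif, in 30.6% against 61.1%. Polk, the translesion polymerase gene, was nearly level between the viruses, at 9.88 and 7.61 FPKM with NR6A1 and 10.6 and 7.28 FPKM with vector.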
